A study of Homo sapiens with 4 samples.

Results

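BAG co-chaperones are proteins that share a BAG domain, through which most of them bind the chaperone HSP70, speed the exchange of its bound nucleotide and so release the client protein. What happens to the client then differs between family members, from proteasomal degradation to autophagy to membrane insertion. AHSA1 is the matching helper on the HSP90 side and stimulates the ATPase cycle of HSP90, the chaperone that keeps many kinases, mutant BRAF among them, in a folded state. The 7 genes described here, AHSA1 and BAG1 to BAG6, were taken by name from a table of 2864 genes with values, which covers only gene names early in the alphabet. All 7 were in the table and all are annotated as protein-coding.

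The RNA came from 4 cultures of A375, a human melanoma cell line described in the labels as wild type, with 1 library per condition. The study addresses BRAF-mutated melanoma, so this label is not to be read as a statement about BRAF. A375P was the untreated parental culture, A375R the resistant strain kept continuously in vemurafenib after stepwise escalation, A375+DMSO was A375 with the solvent for 48 h, and A375+VEM was A375 with 2 μM vemurafenib for 48 h. Vemurafenib inhibits the BRAF kinase. Whether A375R is 1 clone is not stated in the sources used here. No condition has a replicate, so no pair of libraries was tested, and an interval below covers counting error only.

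Levels are given as TPM, which corrects the authors' read counts for gene length and for the size of the library and can be compared between genes. A gene was called when (TPM + 0.1) differed by more than 1.5-fold, provided that at least 1 of the libraries compared had a TPM of 1 or more. Each of the 7 genes passed that filter in every comparison, with 200 to 5740 reads per library. Folds of single genes are ratios of TPM, and their 95% intervals are exact (Clopper-Pearson) and come from the read numbers. In bulk RNA, less RNA per cell and fewer cells that express a gene cannot be told apart. The 2864 genes carried 8.48% to 8.94% of each library's TPM, so sums of their reads are not library depths. Of 6 melanocytic lineage genes, all in the table, 2 to 5 reached a TPM of 1, and their summed TPM ran from 23.5 in A375P to 58.1 in A375+VEM. These genes did not move together. In A375R, BCL2A1 (TPM 37.5, against 7.67 in A375P) and ACP5 (14.0, against 10.7) were higher than in A375P. APOD, CA14, BIRC7 and ABCB5 were lower. ABCB5 had 0 to 6 reads. Of 12 markers of other cell types, 3 or 4 reached a TPM of 1 in a library, and their summed TPM was 169 in A375P and 85.5 to 97.7 in the other libraries. Most of that sum was ACTA2 and ALB. ACTA2 had a TPM of 92.2 in A375P and 28.3 to 40.1 in the other libraries, and ALB had a TPM of 46.4 to 64.5. C1QA had 0 reads in all 4 libraries.

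The bases just upstream of the transcription start of BAG1, BAG2 and BAG3 are shown because these members differed most between libraries. The sequences are from RefSeq on GRCh38.p14, a different build from the hg19 named in the submitters' processing notes, and give the 130 bases that end at the start. They lie at chr9:33264709-33264838 on the minus strand, chr6:57172196-57172325 on the plus strand and chr10:119651250-119651379 on the plus strand. Capitals mark GC boxes (GGGCGG or, on the other strand, CCGCCC) and, in BAG2, a pair of facing heat shock units (GAANNTTC).
BAG1: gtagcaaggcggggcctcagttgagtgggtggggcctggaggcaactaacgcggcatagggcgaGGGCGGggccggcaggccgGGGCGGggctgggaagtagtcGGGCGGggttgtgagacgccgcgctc
BAG2: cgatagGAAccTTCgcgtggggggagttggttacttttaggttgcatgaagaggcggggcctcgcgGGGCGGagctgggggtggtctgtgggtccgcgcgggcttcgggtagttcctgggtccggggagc
BAG3: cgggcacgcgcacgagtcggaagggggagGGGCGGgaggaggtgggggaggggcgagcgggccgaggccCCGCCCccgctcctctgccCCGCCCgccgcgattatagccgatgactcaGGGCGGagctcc

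In the whole 300-base windows, 250 bases before the start and 50 after, BAG3 had 6 GC boxes, BAG1 had 5 and BAG2 had 2. All 6 genes with a window (BAG4 had none) held at least 1 GC box, against 48.3% of the 27305 genes in the RefSeq table. A CCAAT box (CCAAT or ATTGG) was in none of the 9 windows of these genes and in 39.7% of all genes. Heat shock elements, bound by HSF1, are built from such units in alternating orientation, and pairs were searched as GAANNTTC and TTCNNGAA, each of which reads the same on both strands. The BAG2 window held 1 pair, beginning 124 bases before the start, and the windows of AHSA1, BAG1, BAG3, BAG5 and BAG6 held none of these exact letters. A pair of either kind was in 16.2% of all genes. No binding was measured, and these matches are descriptions of the letters only.

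The levels spanned more than an order of magnitude, and their order was partly the same in every library. BAG6 was the highest, AHSA1 came next and BAG3 after it in all 4 libraries, and BAG4 was the lowest in all 4. The middle of the order was BAG1, BAG5, BAG2 in A375P and A375+VEM, and BAG2, BAG1, BAG5 in A375R and A375+DMSO. Neighbours in the order were compared by reads per length within a library, and for 3 pairs the interval of the ratio held 1. These were BAG2 and BAG1 in A375R (ratio 1.07, 95% interval 0.945 to 1.20), BAG2 and BAG1 in A375+DMSO (1.03, 0.903 to 1.17) and BAG2 and BAG4 in A375+VEM (1.08, 0.911 to 1.29). All other neighbours were separated beyond counting error.

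**Figure D1:**
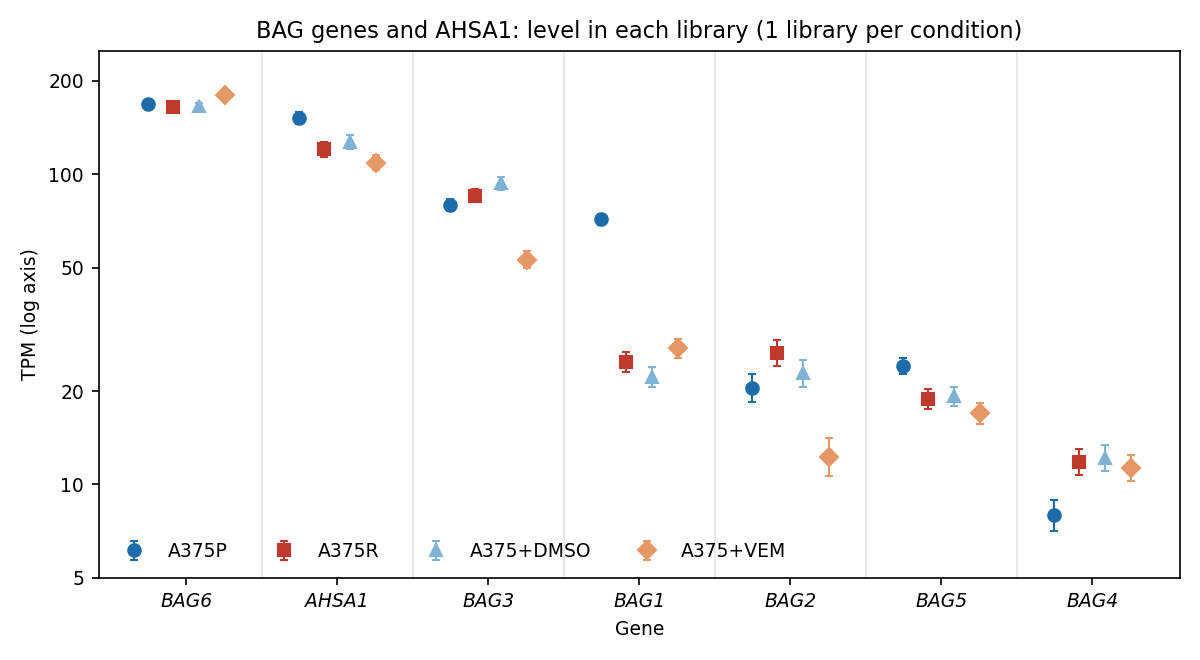
TPM of each gene (log axis) in A375P, A375R, A375+DMSO and A375+VEM, with 95% exact Poisson intervals on the reads as bars. BAG6 sits between 165 and 180 in every library, while BAG1 stands at 71.5 in A375P and at 22.2 to 27.4 in the other libraries.

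BAG6, also called BAT3, guards newly made membrane proteins on their way to insertion or degradation, and it was the most abundant and the steadiest member. It is annotated at chr6:31606805-31620477 on the minus strand in hg19 (NCBI gene 7917). Its TPM was 169 in A375P and 165 in A375R, 166 for A375+DMSO and 180 for A375+VEM. The 4 values lay within 1.09-fold of each other. Between A375P and A375R it went to 0.975 of its level (95% interval 0.939 to 1.01), an interval that holds 1. From A375+DMSO to A375+VEM it was 1.08 (95% interval 1.04 to 1.13), and after scaling to the median ratio of all genes the log2 difference was 0.01. Among the BAG genes alone, BAG6 made up 45.4% of the summed TPM in A375P and 49.6% in A375R, 49.4% for A375+DMSO and 59.7% for A375+VEM. Its span overlaps that of APOM on the other strand, and APOM had 13 to 41 reads against 5055 to 5740 for BAG6. Whether reads were counted by strand is not given in the sources used here.

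**Figure D2:**
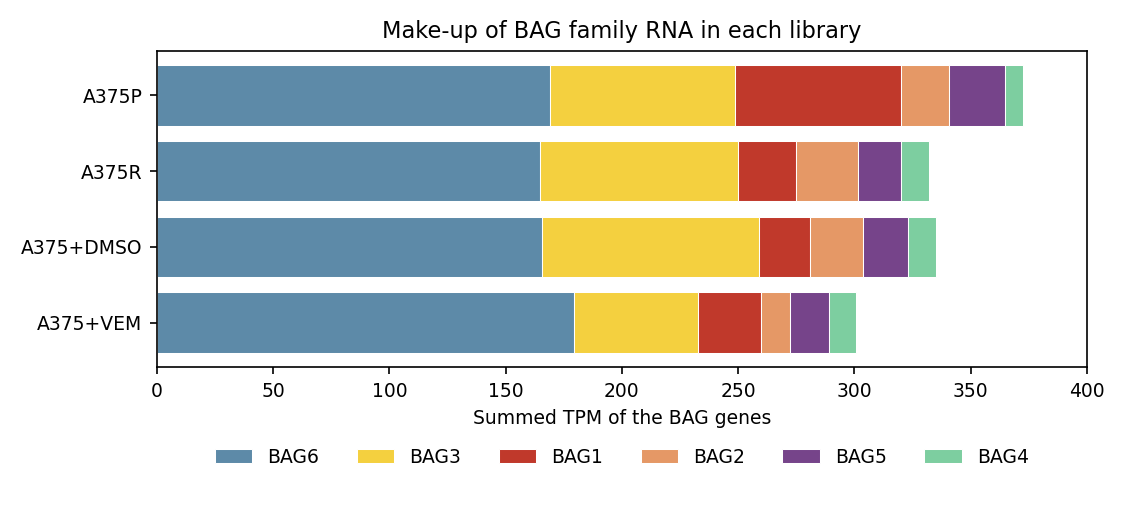
Summed TPM of BAG1 to BAG6 in each library (horizontal axis), split by gene. The sum is 373 in A375P and 301 in A375+VEM, and the BAG1 segment is widest in A375P.

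BAG1, the founding member, carries a ubiquitin-like domain that couples HSP70 to the proteasome and was named for its binding to BCL2. It lies at chr9:33252469-33264759 on the minus strand (NCBI gene 573). Its TPM was 71.5 in A375P (2372 reads) and 24.8 in A375R (744 reads), 22.2 for A375+DMSO (689 reads) and 27.4 for A375+VEM (844 reads). The parental library stood apart from the other 3, which lay between 22.2 and 27.4. Relative to A375P, BAG1 was 2.88-fold lower in A375R (95% interval 2.65 to 3.13), 3.21-fold lower in the solvent culture (2.95 to 3.50) and 2.60-fold lower in A375+VEM (2.41 to 2.82). These comparisons share the A375P library. Against A375+DMSO, BAG1 in A375R was at 1.12 (95% interval 1.00 to 1.24) and in A375+VEM at 1.23 (1.11 to 1.37), neither past 1.5-fold. Of 1700 genes whose TPM averaged 1 or more, 7.59% were above all other libraries by more than 1.5-fold in A375P, and BAG1 was the 1 member among them.

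BCL2 and ACTA2 were also highest in A375P. BCL2 had a TPM of 8.88 in A375P and 4.35 in A375R, 3.57 for A375+DMSO and 0.514 for A375+VEM. ACTA2, an actin of contractile cells and 1 of the 12 markers of other cell types, was at 92.2 in A375P and 35.0 in A375R, 28.3 for A375+DMSO and 40.1 for A375+VEM. The part of other cell types or of the parental culture in the BAG1 values was not tested.

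BAG1 had the widest range of the 7 genes, 1.68 on the scale of log2(TPM + 0.1). The genes with the most similar pattern over the 4 libraries, by the root mean square difference of centred log2(TPM + 0.1) among 1699 genes, were C2orf82 (0.07), ACTA2 (0.08), ACRV1 (0.09), ATP6V1B2 (0.09) and BLOC1S2 (0.13). ATP6V1B2, a subunit of the vacuolar proton pump, was at a TPM of 140 in A375P and 41.7 to 52.7 in the others. C2orf82 and ACRV1 did not exceed a TPM of 4.57 in any library. With 4 libraries, closeness of this kind is a description only.

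BAG3 binds small heat shock proteins as well as HSP70 and steers damaged proteins to autophagy, and it is a well-known target of HSF1. It lies at chr10:121410882-121437331 on the plus strand (NCBI gene 9531). Its TPM was 79.6 in A375P and 85.4 in A375R, 93.3 for A375+DMSO and 53.1 for A375+VEM. The culture with 48 h of vemurafenib was the lowest, and the other 3 lay together above it. With vemurafenib for 48 h, BAG3 was 1.76-fold lower than with DMSO (95% interval 1.63 to 1.90, from 1084 and 1919 reads). Its ratio in A375+VEM to A375P was 0.667 (0.617 to 0.719), which on the scale of log2(TPM + 0.1), at -0.58, fell just short of the threshold. In A375R the ratio to A375P was 1.07 (95% interval 1.00 to 1.15), and after scaling to the median of all genes the log2 difference was 0.00.

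BAG2 inhibits CHIP, the ubiquitin ligase that marks HSP70 clients for degradation. It lies at chr6:57037104-57050013 on the plus strand (NCBI gene 9532). Its TPM was 20.5 in A375P and 26.5 in A375R, 22.8 for A375+DMSO and 12.3 for A375+VEM. As for BAG3, A375+VEM was the lowest library, and A375R was the highest. In A375+VEM, BAG2 was 1.86-fold below its level with DMSO (95% interval 1.56 to 2.22) and 1.67-fold below that in A375P (1.40 to 1.99), on 200 reads, the fewest of any member. It was the 1 member below all other libraries by more than 1.5-fold in A375+VEM, as were 13.8% of 1700 genes. In A375R it was at 1.29 of its level in A375P (95% interval 1.12 to 1.49), short of 1.5-fold. The ratio of BAG3 to BAG2 per length was 3.89 in A375P and 3.22 in A375R, 4.09 for A375+DMSO and 4.33 for A375+VEM. Its interval in A375+VEM (3.72 to 5.06) overlapped that in A375+DMSO (3.66 to 4.58).

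AHSA1 and BAG5 moved little and alike. AHSA1 is annotated at chr14:77924220-77935815 on the plus strand (NCBI gene 10598), with a TPM of 152 in A375P and 120 in A375R, 127 for A375+DMSO and 109 for A375+VEM. BAG5, which holds several BAG domains and binds the ubiquitin ligase parkin, is at chr14:104022881-104029151 on the minus strand (NCBI gene 9529), with a TPM of 24.1, 18.9, 19.2 and 16.9 in the same order. For both, A375P was the highest and A375+VEM the lowest library, and the highest was 1.40-fold the lowest for AHSA1 and 1.42-fold for BAG5. Neither was past 1.5-fold in any of the 5 comparisons. In A375R against A375P the ratio was 0.790 (95% interval 0.737 to 0.847) for AHSA1 and 0.784 (0.713 to 0.860) for BAG5. In A375+VEM against A375+DMSO it was 0.858 (0.796 to 0.925) and 0.881 (0.795 to 0.976). Among 1699 genes BAG5 was the nearest in pattern to AHSA1 and AHSA1 the nearest to BAG5, with a root mean square difference of 0.02 in log2, a pairing picked out after the values were seen. BAG5 lies 143 bases from APOPT1 on the other strand, which had 251 to 668 reads.

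BAG4, or SODD, binds the death domain of TNF receptors and was the least abundant member. It lies on chromosome 8, at 38034106 to 38070819 on the plus strand (NCBI gene 9530). Its TPM was 7.95 in A375P and 11.8 in A375R, 12.2 for A375+DMSO and 11.3 for A375+VEM. Here the parental library was the lowest and the other 3 lay together, the mirror image of BAG1. Relative to A375P, BAG4 was at 1.49 in A375R (95% interval 1.28 to 1.73), at 1.53 with DMSO (1.32 to 1.78) and at 1.42 with vemurafenib (1.22 to 1.66). These intervals overlap and each holds 1.5, and only the DMSO value was past the threshold. From A375+DMSO to A375+VEM the ratio was 0.928 (95% interval 0.808 to 1.07), an interval that holds 1.

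The first pair of the study asks what sets the resistant strain apart from the parental cells. Among the 7 genes, none was called higher in A375R than in A375P and 1, BAG1, was called lower, where 26.8% of 1689 genes compared were higher and 17.5% lower. The median log2 ratio of the 7 was -0.04, against 0.10 for all genes. With A375+DMSO as the control in place of A375P, none of the 7 was past 1.5-fold in A375R, where 10.5% of 1702 genes were higher and 9.99% lower. In that comparison the 7 log2 ratios ran from -0.13 for BAG3 to 0.21 for BAG2. The libraries without vemurafenib also differed from each other, with BAG4 higher and BAG1 lower in A375+DMSO than in A375P, against a background of 26.8% of 1720 genes higher and 18.9% lower.

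The second pair asks what 48 h of vemurafenib does. None of the 7 was called higher with vemurafenib than with DMSO and 2 were called lower, BAG2 and BAG3, where 26.5% of 1784 genes were higher and 19.7% lower. The median log2 ratio of the 7 was -0.18, against 0.11 for all genes. Relative to the latter, BAG3 was at -0.92 and BAG2 lay slightly further down. Against A375P, BAG1 and BAG2 were lower in A375+VEM, where 36.9% of 1782 genes were higher and 25.3% lower. The median of all genes in this comparison was 0.15, and scaled to it 5 members, AHSA1, BAG1, BAG2, BAG3 and BAG5, were lower by more than 1.5-fold and none was higher, where 29.7% of all genes were lower and 32.4% higher on that scale. BAG6 turned from 0.09 to -0.07. Without the scaling AHSA1 stood at -0.48, BAG5 at -0.51 and BAG3 at -0.58, all short of the threshold. Read against the unscaled shares, 1 or 2 calls among 7 genes are no result about the group as a whole. The 5 scaled calls depend on the scaling and rest on the same A375P and A375+VEM libraries.

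**Figure D3:**
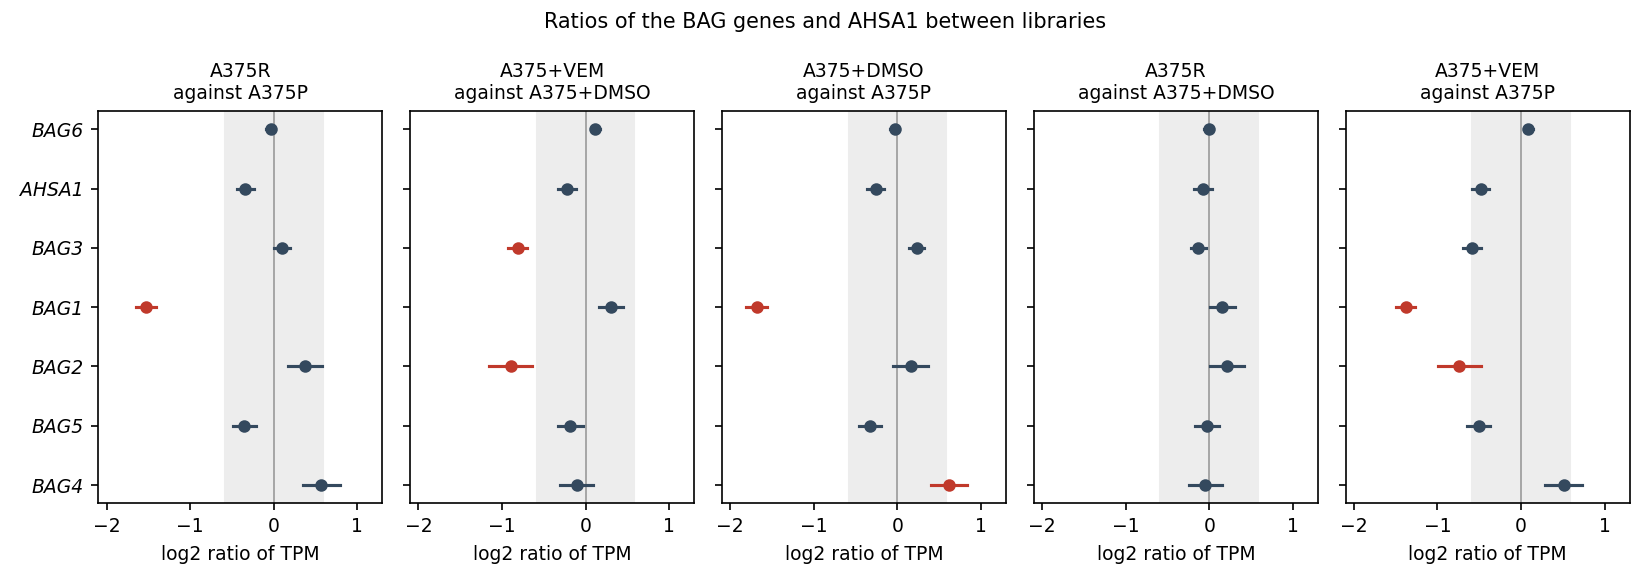
Log2 ratio of TPM of each gene in the 5 comparisons (horizontal axis), with 95% intervals for counting error; grey marks the span within 1.5-fold and red the called genes. BAG1 is far left in each of the 3 panels with A375P as the control, BAG2 and BAG3 are left in A375+VEM against A375+DMSO, and no gene leaves the grey span in A375R against A375+DMSO.

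**Figure D4:**
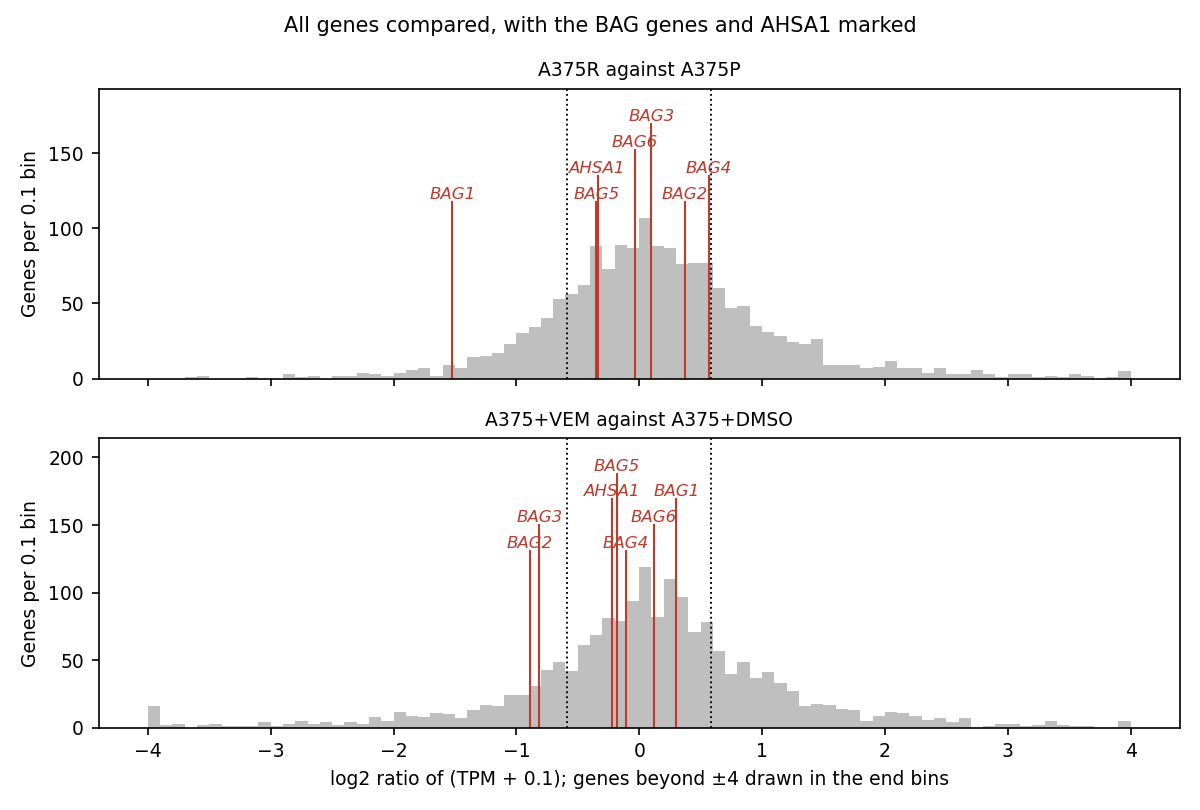
Number of genes per 0.1 bin of the log2 ratio of (TPM + 0.1) for the 2 pairs of the study, with red lines at the 7 genes and dotted lines at 1.5-fold. BAG1 lies at -1.52 in A375R against A375P, while BAG2 at -0.89 and BAG3 at -0.81 lie on the left shoulder in A375+VEM against A375+DMSO.

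Ratios between genes of the same library do not depend on how libraries are scaled. BAG1 and BAG3 are often set against each other, as the proteasomal and the autophagic arm of HSP70 client disposal. Per length, BAG3 over BAG1 was 1.11 in A375P (95% interval 1.05 to 1.19) and 3.44 in A375R (3.15 to 3.75), 4.20 for A375+DMSO (3.84 to 4.58) and 1.93 for A375+VEM (1.77 to 2.12). The parental library, where BAG1 was high, had the lowest ratio, followed by A375+VEM, where BAG3 was low. The solvent culture had the highest ratio, above both A375R and A375+VEM. Summed over the family, BAG RNA was at a TPM of 373 in A375P and 332 in A375R, 335 for A375+DMSO and 301 for A375+VEM. Without BAG1 the sums were 301, 307, 313 and 273, so the excess in A375P lay in BAG1 and A375+VEM was still the lowest.

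AHSA2, the paralogue of AHSA1 and part of the list of other folding genes, was picked out here after its values were seen. Its TPM was 16.7 in A375P and 26.2 in A375R, 38.2 for A375+DMSO and 61.8 for A375+VEM, the reverse of the order of AHSA1 except that A375R and A375+DMSO were swapped. The ratio of AHSA1 to AHSA2 per length went from 9.12 in A375P (95% interval 8.37 to 9.95) to 4.59 in A375R (4.23 to 4.98), 3.32 for A375+DMSO (3.09 to 3.57) and 1.76 for A375+VEM (1.65 to 1.89). These 4 intervals did not overlap.

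**Figure D5:**
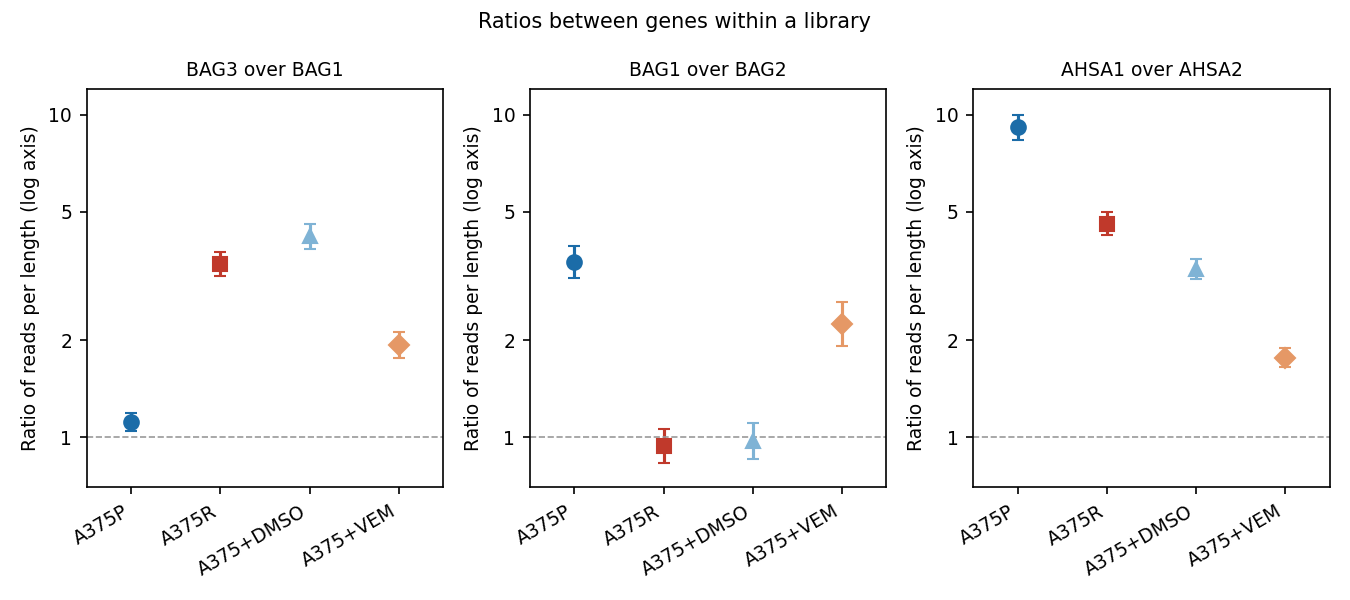
Ratio of reads per length between 2 genes of the same library (log axis) for BAG3 over BAG1, BAG1 over BAG2 and AHSA1 over AHSA2, with 95% counting intervals. BAG3 over BAG1 is 1.11 in A375P and 4.20 in A375+DMSO, and AHSA1 over AHSA2 is 9.12 in A375P and 1.76 in A375+VEM.

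The list of other protein folding genes went both ways. It was drawn broadly and also holds genes that are not general folding factors, such as ASF1B and CACYBP, described below. Of 22 other protein folding genes, 21 were in the table and 17 could be compared. In A375R against A375P, 3 of the 17 were higher and 3 lower, where 26.8% of all genes were higher and 17.5% lower, with a median log2 ratio of -0.11 against 0.10 for all genes. Those furthest apart were CACYBP (1.71-fold higher), which binds the ubiquitin ligase SIAH1, ASF1B (1.60-fold higher), a histone chaperone of dividing cells, AAGAB (ratio 0.504), which assembles clathrin adaptors, and BBS10 (ratio 0.573), a chaperonin-like protein. In A375+VEM against A375+DMSO, 4 of the 17 were higher and 4 lower, where 26.5% of all genes were higher and 19.7% lower, with a median of 0.08 against 0.11 for all genes. ASF1B had 1085 reads in A375+DMSO and 58 in A375+VEM, a ratio of 0.054 (95% interval 0.041 to 0.070), and CACYBP was at 0.546. C1GALT1C1, the chaperone of an O-glycan enzyme, was 2.22-fold higher, and ASF1A 1.74-fold higher. In A375R against A375+DMSO none of the 17 was past 1.5-fold, where 10.5% of all genes were higher and 9.99% lower.

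Of 9 protein quality control genes, all compared, none was higher and AUP1 was lower in A375R than in A375P (ratio 0.664). Of all genes compared in that pair, 26.8% were higher and 17.5% lower. AUP1 was at 0.691 in A375+DMSO against A375P and at 0.960 in A375R against A375+DMSO. With vemurafenib for 48 h, ATXN3 was higher (1.51-fold) and BFAR lower (ratio 0.652) than with DMSO. Of all genes in this pair, 26.5% were higher and 19.7% lower. Among genes of HSP90 clients and BCL2, ALK (ratio 0.451) and BCL2 (0.490) were lower in A375R than in A375P. With vemurafenib for 48 h, AHR (2.47-fold) and ALK (3.51-fold) were higher and AXL (ratio 0.258) and BCL2 (0.144) lower than with DMSO. These are RNA levels, which do not measure how much client protein was folded.

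In the comparison with more than 1 library per arm, the cultures with vemurafenib (A375R, A375+VEM) were set against those without it. The libraries of an arm are different conditions, so their spread includes real differences between conditions. By edgeR's quasi-likelihood test over 1700 genes, none of the 7 was called, and 0% of all genes were (12 genes had an unadjusted p under 0.05, none of them among the 7). BAG1 had the largest log2 fold change of the 7, -0.96 (standard error 0.63), and the adjusted p was 1.00 for every member. BAG3 was at -0.40 (standard error 0.41), AHSA1 at -0.38 (0.36), BAG5 at -0.37 (0.40), BAG2 at -0.23 (0.58), BAG4 at 0.11 (0.47) and BAG6 at -0.05 (0.34). DESeq2 called none of the 7 either, with 36 genes at an unadjusted p under 0.05. Without A375P, BAG1 turned to 0.17 and BAG4 to -0.13.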

How the data were processed

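RNA of 4 A375 cultures was sequenced, 1 library per condition, grouped by the sample titles. The authors deposited whole-number read counts without normalization, and TPM, in which counts are corrected for gene length and sum to the same total in each library. The submitters' processing notes name TopHat2, Bowtie2, HISAT, HISAT2 and hg19; the counting program and the use of strand are not given in the sources used here. The table holds part of the gene list, and 1 incomplete row was left out.

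Pairs were compared by the ratio of (TPM + 0.1), and the pooled comparison by edgeR with TMM and Benjamini-Hochberg adjustment over the genes whose TPM averaged 1 or more. Standard errors were derived from the quasi-likelihood F statistic. Adding 0.1 understates the change of low genes. Both steps were run on simulated data. The simulated pairs held counting error only. In the pooled simulation the libraries of an arm shared a common mean, unlike the different conditions here. How many changes the pooled comparison would find in these data was therefore not tested. The members, lists and rules were chosen with earlier results of these data known. Named genes were the 7 members, the 5 genes most like the member of widest range, and overlapping genes. From each list, those furthest up and down (2 each) in both pairs were to be named. Of the quality control genes, only those past 1.5-fold are named. Other exceptions are marked. Some genes of the client list are not reported here. Alternatives were other pseudocounts, filters, scalings and thresholds, DESeq2, limma and the pair as a block. Tests were run with edgeR 4.0.16, DESeq2 1.42.0 and limma 3.58.1 under R 4.3.3, and intervals with scipy 1.17.1 under Python 3.11.15.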

Additional observations from a re-analysis of the deposited data

Results flagged for a closer look

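BAG1, BAG2 and BAG3 went opposite ways in the 2 pairs, with counting intervals that exclude a ratio of 1 in both. On the scale of log2(TPM + 0.1), BAG1 stood at -1.52 for the resistant strain against A375P, and at 0.30 for vemurafenib against DMSO. BAG2 was at 0.37 and -0.89 in the same order, and BAG3 at 0.10 and -0.81. Scaled to the median of all genes, BAG3 in the first pair was at 0.00, so it has no direction there on that scale. BAG1 was past 1.5-fold, lower, in the first pair alone, and BAG2 and BAG3, also lower, in the second alone. Of all genes compared, 17.5% were lower by more than 1.5-fold in the first pair and 19.7% in the second. Since each condition has 1 library, the difference was not tested. How many of all genes went opposite ways in these pairs was not counted, so the pattern is not shown to be particular to these members. With A375+DMSO as the control of both, BAG1 was at 0.16 in A375R, BAG2 at 0.21 and BAG3 at -0.13, so for BAG1 and BAG3 both conditions then lay on the same side.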

How the results depend on the processing

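BAG1 in A375R against A375P kept its call under all 6 alternatives tried, and A375R against A375+DMSO had none of the 7 called under any of them. At a threshold of 2-fold the calls in A375+VEM against A375+DMSO went from 2 to 0, those in A375+DMSO against A375P from 2 to 1 and those in A375+VEM against A375P from 2 to 1. The share of all genes lower at that threshold was 11.1%, 9.36% and 15.4% in the same order. In A375+DMSO against A375P, BAG4 lost its call with a pseudocount of 1 and with ratios scaled to a median of 1. Of all genes, 23.8% and 23.7% were higher in these settings. The 1 call left in each was BAG1, lower, where 17.1% and 22.6% of genes were lower. That scaling gave 5 calls in A375+VEM against A375P, all lower, where 29.7% of all genes were lower on that scale and 25.3% without it. With a pseudocount of 0.01 that comparison also called BAG3, 3 in all, where 25.5% of genes were lower. In the pooled comparison, 0 members were called under every alternative, and the pair as a block gave an unadjusted p under 0.05 for 59 genes, against 12 without it. BAG6 turned from -0.05 to 0.041 with library sizes from the TPM and to 0.040 with limma, and without A375P, an alternative added after seeing the data, BAG1 turned to 0.17 and BAG4 to -0.13. No paired analysis of replicates was possible because each condition has 1 library. Both the single library per condition and the reads per gene limit these comparisons. The intervals of BAG4 against A375P hold 1.5. In A375+VEM against A375P, so do those of the fold lower of BAG2 (1.40 to 1.99), BAG3 (1.39 to 1.62) and BAG5 (1.29 to 1.57).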
